A study of Mus musculus with 6 samples.

Results

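The alpha and beta crystallins are structural proteins that fill the fibre cells of the eye lens. The 8 genes described here are Cryaa, Cryab, Cryba1, Cryba2, Cryba4, Crybb1, Crybb2 and Crybb3. They were taken by symbol, and all 8 are present among the 22692 gene symbols of the tables. The samples were whole eyes of C57BL/6J mice, an inbred laboratory strain, collected 1.5 h or 9.0 h into the light period. Each time had 3 RNA sequencing libraries, each made from pooled RNA of 5 female mice aged 4 weeks. The labels name no treatment and no engineered allele. Whether replicate pools came from different mice is not labelled, and the tests therefore speak only of library-to-library spread, which may be technical.

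Crystallins make up most of the soluble protein of the lens, and their dense, orderly packing gives the lens its transparency and refractive power. Alpha crystallins belong to the small heat shock proteins and act as chaperones that hold damaged lens proteins in solution. Cryaa is largely a lens gene, while Cryab is also made in muscle, retina and other tissues. The beta crystallins share a fold with the gamma crystallins and assemble into dimers and larger oligomers. They fall into an acidic group (Cryba1, Cryba2 and Cryba4) and a basic group (Crybb1, Crybb2 and Crybb3). Lens fibre cells lose their nuclei as they mature, so crystallin protein made early has to last for life. Several lens transcription factors, among them Maf, Pax6, Prox1 and Hsf4, are known to act on crystallin genes.

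The genes lie on 5 chromosomes in mouse: Cryba2 on 1, Cryab on 9, Cryba1 on 11, Cryaa on 17, and Cryba4, Crybb1, Crybb2 and Crybb3 all on 5. On chromosome 5, Cryba4 and Crybb1 are read away from each other from starts 3302 bases apart in GRCm38, and Crybb2 and Crybb3 are neighbours on the same strand with starts 11467 bases apart. Of the 8 genes, 7 had a RefSeq promoter window of 300 bases in GRCm38.p6, with 250 bases before the annotated start and 50 after it. Cryab had no entry. Shown here are the windows of the 5 genes whose values did not overlap between the times (below), so that the shared start regions can be compared. Capitals mark TGCTGA on either strand (TCAGCA is its reverse complement), the core of the element bound by Maf proteins. They also mark the promoter motif known as the TATA box, written TATAAA. The windows are chr17:31677681-31677980 (plus strand) for Cryaa, chr11:77725244-77725543 (minus strand) for Cryba1, chr5:112252469-112252768 (minus strand) for Cryba4, chr5:112255570-112255869 (plus strand) for Crybb1 and chr5:113081535-113081834 (minus strand) for Crybb3.
Cryaa: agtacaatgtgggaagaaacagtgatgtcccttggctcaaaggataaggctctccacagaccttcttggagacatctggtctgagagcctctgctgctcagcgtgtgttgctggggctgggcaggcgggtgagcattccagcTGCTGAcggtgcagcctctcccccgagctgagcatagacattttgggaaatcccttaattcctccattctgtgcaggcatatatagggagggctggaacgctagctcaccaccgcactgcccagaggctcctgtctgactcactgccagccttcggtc
Cryba1: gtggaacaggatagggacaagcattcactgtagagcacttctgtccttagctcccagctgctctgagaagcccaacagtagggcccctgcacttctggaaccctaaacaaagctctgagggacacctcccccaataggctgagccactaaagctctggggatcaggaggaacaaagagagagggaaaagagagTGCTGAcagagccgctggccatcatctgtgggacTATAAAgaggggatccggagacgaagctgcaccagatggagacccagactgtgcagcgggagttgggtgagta
Cryba4: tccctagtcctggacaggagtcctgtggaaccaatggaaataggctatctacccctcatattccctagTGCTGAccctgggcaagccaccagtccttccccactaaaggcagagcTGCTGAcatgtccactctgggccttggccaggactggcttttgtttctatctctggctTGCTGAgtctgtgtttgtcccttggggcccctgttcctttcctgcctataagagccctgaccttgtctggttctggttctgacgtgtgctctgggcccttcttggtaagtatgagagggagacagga
Crybb1: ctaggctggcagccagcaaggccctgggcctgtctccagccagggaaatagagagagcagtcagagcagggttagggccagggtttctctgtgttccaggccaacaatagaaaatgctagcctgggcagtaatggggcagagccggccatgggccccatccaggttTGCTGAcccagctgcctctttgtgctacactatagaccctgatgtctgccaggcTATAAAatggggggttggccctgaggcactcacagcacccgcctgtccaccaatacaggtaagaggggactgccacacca
Crybb3: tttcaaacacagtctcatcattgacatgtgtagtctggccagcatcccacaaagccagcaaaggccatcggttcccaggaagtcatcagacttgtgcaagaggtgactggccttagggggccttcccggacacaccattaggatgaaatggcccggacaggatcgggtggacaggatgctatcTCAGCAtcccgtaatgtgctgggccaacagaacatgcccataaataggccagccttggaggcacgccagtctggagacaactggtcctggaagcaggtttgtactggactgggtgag

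TGCTGA was present on either strand in 6 of the 7 windows, all but that of Crybb2, and in 19.5% of 32851 promoter windows of the same length. Cryba4 held 3 copies. The longer form TGCTGAC, which overlaps the first motif, was found in 4 windows (Cryaa, Cryba1, Cryba4 and Crybb1) and in 4.67% of all windows. In these 4 genes a copy of it began between 57 and 182 bases before the start. TATAAA was found in the windows of Cryba1, Cryba2 and Crybb1, and in 13.6% of all windows. In Crybb1 it lay 30 bases, in Cryba1 23 bases and in Cryba2 3 bases before the start. The motifs were chosen as elements already known from crystallin promoters, and a match is a description of the letters and not evidence of binding. Other GENCODE transcripts start outside the windows of Cryba4 (up to 1356 bases away), Crybb2 (1351) and Crybb3 (917), and those starts were not searched.

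Values are in RPKM, read counts scaled to gene length and to library size, so levels of different genes can be compared. By mean over the 6 libraries the order was Crybb2 (34981 RPKM), Cryaa (34267), Cryba1 (19288), Crybb3 (9243), Cryba4 (7142), Cryba2 (5588), Crybb1 (5040) and Cryab (4509). Crybb2 and Cryaa took the first and second rank among all genes in every library, Crybb2 first in the 3 libraries of 1.5 h and Cryaa first in the 3 of 9.0 h. Cryaa, Cryba1, Crybb3, Cryba4 and Cryba2 followed each other in this order in all 6 libraries. The level ratio of Crybb2 to Cryaa was 0.10 ± 0.57 on the log2 scale (SD over 6 libraries). That of Cryba2 to Crybb1 was 0.29 ± 0.68, and that of Crybb1 to Cryab 0.12 ± 0.63, so these neighbours did not differ beyond their spread over all 6 libraries. That spread holds a change of order with time. Cryba2 was above Crybb1 in all 3 libraries of 1.5 h and below it in all 3 of 9.0 h.

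Depth was uneven, with an estimated 12760000 and 13000000 reads in 1.5 h replicates 2 and 3 and between 23970000 and 31800000 in the other 4 libraries. It does not limit these genes. The fewest estimated reads of any of the 8 genes in any library were 30595, for Crybb1. Another library stood apart in the crystallins themselves: 1.5 h replicate 1 held the lowest value of 7 of the 8 genes, against 27.0% of the 13490 genes tested. In 1.5 h replicate 3, 4 of 4 Y-linked genes were above 0, against 0 of 4 in every other library, although the labels give female mice. Values without 1.5 h replicate 1 are given beside the results that it moved most.

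The comparison asked whether crystallin RNA of the eye differs between early and later day. It was tested with limma on log2(RPKM + 0.1), over 13490 genes that reached 1 RPKM in 3 libraries, as 9.0 h minus 1.5 h. All 8 genes passed this filter in both groups. None of the 8 was called at a Benjamini-Hochberg adjusted p of 0.05, against 0.222% of all tested genes (30). At an unadjusted p under 0.05, 3 of the 8 were higher (Cryaa, Cryba1 and Crybb1), against 6.47% of all genes. Several of the 8 genes varied together across the same libraries, so counts of them here and below are not counts of independent results. In 5 of the 8 genes every 9.0 h library lay above every 1.5 h library, against 9.78% of all genes, and none of the 8 lay wholly below, against 8.41%. Such separation was not particular to these genes, and the counts for other lists are given below. Of the 8 log2 changes, 7 were above 0, with a median of 0.46, against a median of −0.0031 over all tested genes. Without 1.5 h replicate 1, and also after quantile normalization, 5 of the 8 were above 0, with medians of 0.33 and 0.050. The limma fit without 1.5 h replicate 1 called 9.11% of all genes at the same threshold. In whole-eye RNA, more lens tissue in a pool and more RNA per lens cell cannot be told apart.

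Among the alpha crystallins, Cryaa had 17273, 27041 and 32952 RPKM in the early libraries (here and below in the order of replicates 1 to 3) and 40568, 42613 and 45156 RPKM at 9.0 h. All 3 later libraries were above the earlier ones, and the earlier ones were spread more widely (coefficient of variation 30.7% against 5.37%). The log2 change was 0.78 ± 0.28 (SE), 1.72-fold, and did not pass over all genes (limma adjusted p = 0.334). Without 1.5 h replicate 1 it was 0.52 (limma adjusted p = 0.118). Cryab had 1608, 6056 and 5371 RPKM at 1.5 h and 4186, 4919 and 4917 RPKM at 9.0 h. One early library was far below all others and the other early libraries were the highest of the 6. The log2 change of Cryab was 0.32 ± 0.43 (limma adjusted p = 0.839), and −0.29 without 1.5 h replicate 1 (limma adjusted p = 0.38), so its direction rested on that library. Without it, every 9.0 h value of Cryab lay below the remaining 1.5 h values, against 19.3% of genes in that comparison. The next lowest library was at 2.60 times the Cryab level of 1.5 h replicate 1. The ratio of Cryaa to Cryab was 10.7 in 1.5 h replicate 1, against 4.47 and 6.14 in the other 1.5 h libraries and 8.66 to 9.69 at 9.0 h.

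Of the acidic beta crystallins, Cryba1, which makes both the A3 and A1 proteins from one RNA, had 9492, 17063 and 19263 RPKM at 1.5 h and 20343, 28079 and 21488 RPKM at 9.0 h. The groups did not overlap, and the log2 change was 0.66 ± 0.29 (limma adjusted p = 0.447), or 0.35 without 1.5 h replicate 1 (limma adjusted p = 0.319). Cryba4, a beta crystallin known from inherited cataract, had 5281, 5829 and 7282 RPKM at 1.5 h and 7404, 7999 and 9056 RPKM at 9.0 h. The gap between the groups was small beside their spread, with a log2 change of 0.42 ± 0.21 (limma adjusted p = 0.5), or 0.32 without 1.5 h replicate 1. Cryba2 had 4634, 5721 and 6023 RPKM at 1.5 h and 5133, 5681 and 6339 RPKM at 9.0 h. These groups overlapped almost completely, and the log2 change was 0.07 ± 0.20, with a 95% interval from −0.38 to 0.52, and −0.043 without 1.5 h replicate 1.

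Of the basic beta crystallins, Crybb1 showed the largest difference of the 8 genes. It had 1938, 3024 and 4666 RPKM at 1.5 h and 6595, 7231 and 6787 RPKM at 9.0 h. Every later library was above the highest early one, and the later libraries lay close together (coefficient of variation 4.74% against 42.8%). The log2 change was 1.19 ± 0.29, 2.28-fold, with limma adjusted p = 0.155 and rank 160 by p among the genes tested. Without 1.5 h replicate 1 it was 0.87 (limma adjusted p = 0.000624), in a fit that called 9.11% of all genes, and without 1.5 h replicate 3 it was 1.50 (limma adjusted p = 0.0902). Leaving out any 9.0 h library gave log2 changes between 1.15 and 1.22, with limma adjusted p between 0.474 and 0.731.

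Crybb3 had 6529, 6614 and 10119 RPKM at 1.5 h and 10365, 10630 and 11198 RPKM at 9.0 h. The groups did not overlap, but 1.5 h replicate 3 nearly reached the later values (log2 change 0.50 ± 0.23, limma adjusted p = 0.459). Crybb2, the chief beta crystallin of the mature lens, had 35603, 37722 and 34512 RPKM at 1.5 h and 30457, 32334 and 39260 RPKM at 9.0 h. It was the only one of the 8 with a mean below that of 1.5 h, with a log2 change of −0.09 ± 0.23 and a 95% interval from −0.59 to 0.42. It was also the only one whose lowest value was not in 1.5 h replicate 1. Leaving out a library cannot undo a separation, so without 1.5 h replicate 1 these 5 genes had to stay wholly above the 1.5 h values. In that comparison 18.8% of genes lay wholly above. The median log2 change of the 8 was then 0.33.

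**Figure D1:**
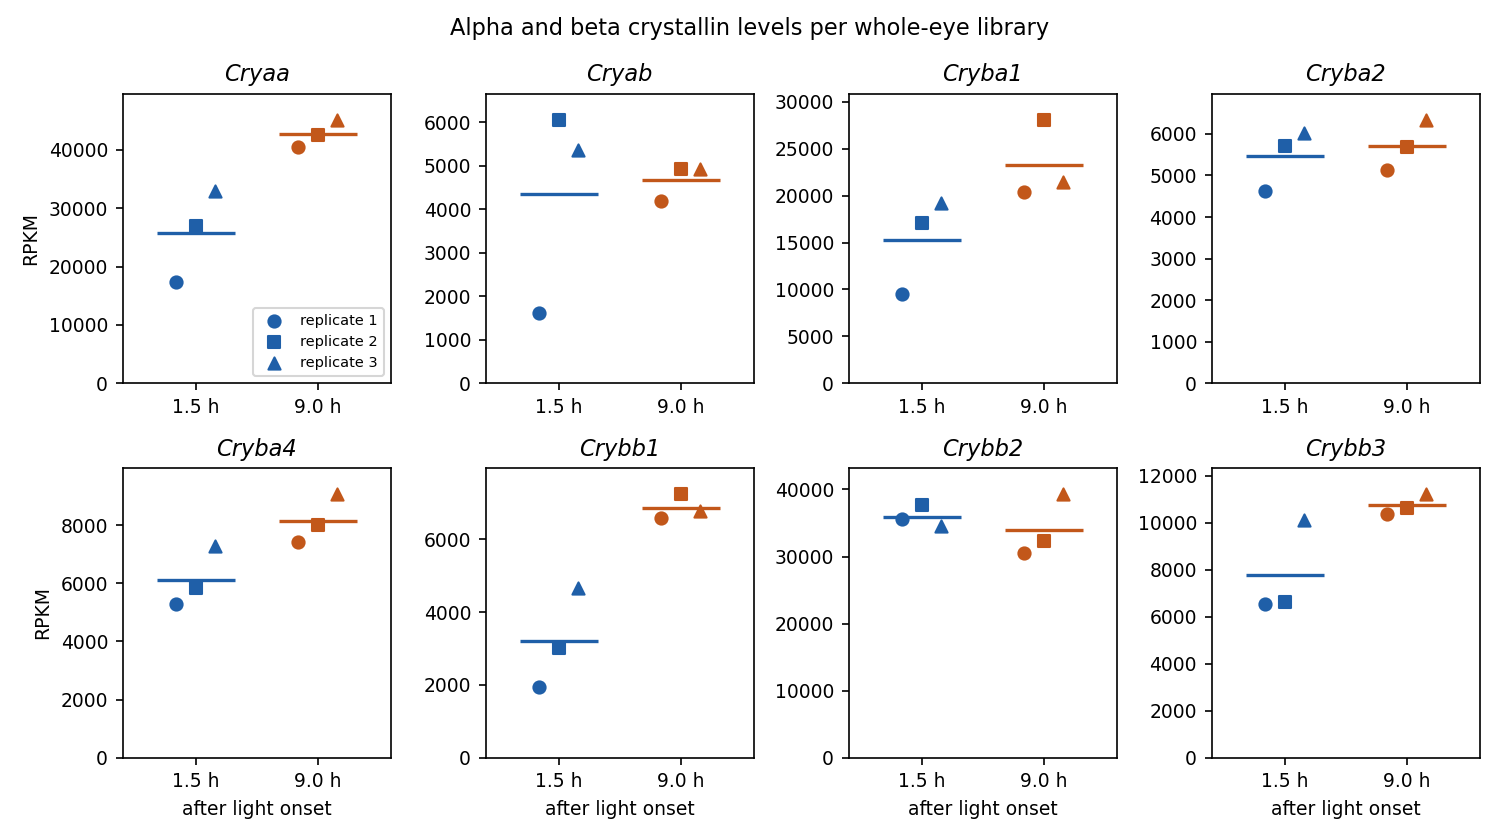
RPKM (each axis from 0) of each of the 8 genes in the 6 libraries, by time after light onset; marker shapes give the replicate and lines the mean of 3 libraries. Cryaa, Cryba1, Cryba4, Crybb1 and Crybb3 have no overlap between the times, while Crybb2 stays between 30457 and 39260 RPKM, and Cryab is at 1608 RPKM in 1.5 h replicate 1.

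Together the 8 genes took 20.9%, 22.5% and 24.5% of the total RPKM at 1.5 h and 24.9%, 25.5% and 26.6% at 9.0 h. The highest early library and the lowest later one were 24.5% and 24.9%, so the groups were separate by a narrow margin. They were not separate when gamma crystallins were left out of the total (difference 4.54 percentage points, exact permutation p = 0.2). The means were 22.7% ± 1.8 and 25.7% ± 0.86 (SD, n = 3 each; two-sided exact permutation p = 0.1, the smallest that 3 against 3 libraries allow). Without 1.5 h replicate 1 the difference fell from 3.02 to 2.16 percentage points. For single genes the share of total RPKM ran from 0.409% (Cryab) to 9.05% (Crybb2), both in 1.5 h replicate 1. Cryaa took between 4.39% and 6.72% at 1.5 h and between 7.79% and 8.33% at 9.0 h.

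The make-up of the 8-gene pool was then compared, as shares of their summed RPKM. Alpha crystallins made up 22.9%, 30.3% and 31.9% of the pool at 1.5 h and 35.8%, 34.1% and 34.7% at 9.0 h (exact permutation p = 0.1). The groups were separate, and the difference was 6.48 percentage points, or 3.75 without 1.5 h replicate 1. Cryaa carried this, with 24.4% ± 3.2 and 31.4% ± 0.95 of the pool (SD, n = 3 each). The share of Cryab overlapped between the times, at 1.95%, 5.55% and 4.47% at 1.5 h and 3.35% to 3.53% at 9.0 h.

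Crybb2 was 43.2%, 34.6% and 28.7% of the pool at 1.5 h and 24.4%, 23.2% and 27.2% at 9.0 h, a difference of −10.6 percentage points between means, or −6.73 without 1.5 h replicate 1. All 3 later libraries were lower than all earlier ones. Shares of a pool move against each other, so a share can fall without a fall in level. The log2 change in level was −0.09 for Crybb2 and 0.07 for Cryba2, while the mean sum of the pool was 103872 RPKM at 1.5 h and 136246 at 9.0 h. Crybb1 was 2.35%, 2.77% and 3.88% of the pool at 1.5 h and 5.27%, 5.18% and 4.71% at 9.0 h, higher in all 3 later libraries. Cryba2 had 5.29% ± 0.31 and 4.19% ± 0.18 of the pool (SD, n = 3 each). The shares of Cryaa, Cryba2, Crybb1 and Crybb2 did not overlap between the times, with an exact permutation p of 0.1 each, the smallest possible, and 0.2 after adjustment over the 8 shares. The other 4 shares overlapped, with adjusted permutation p between 0.64 and 1. Acidic members were 30.6%, 37.7% and 39.8% of the beta crystallin sum at 1.5 h and 40.9%, 45.4% and 39.2% at 9.0 h, which overlapped (exact permutation p = 0.2). The difference between means was 5.84 percentage points, or 3.13 without 1.5 h replicate 1.

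**Figure D2:**
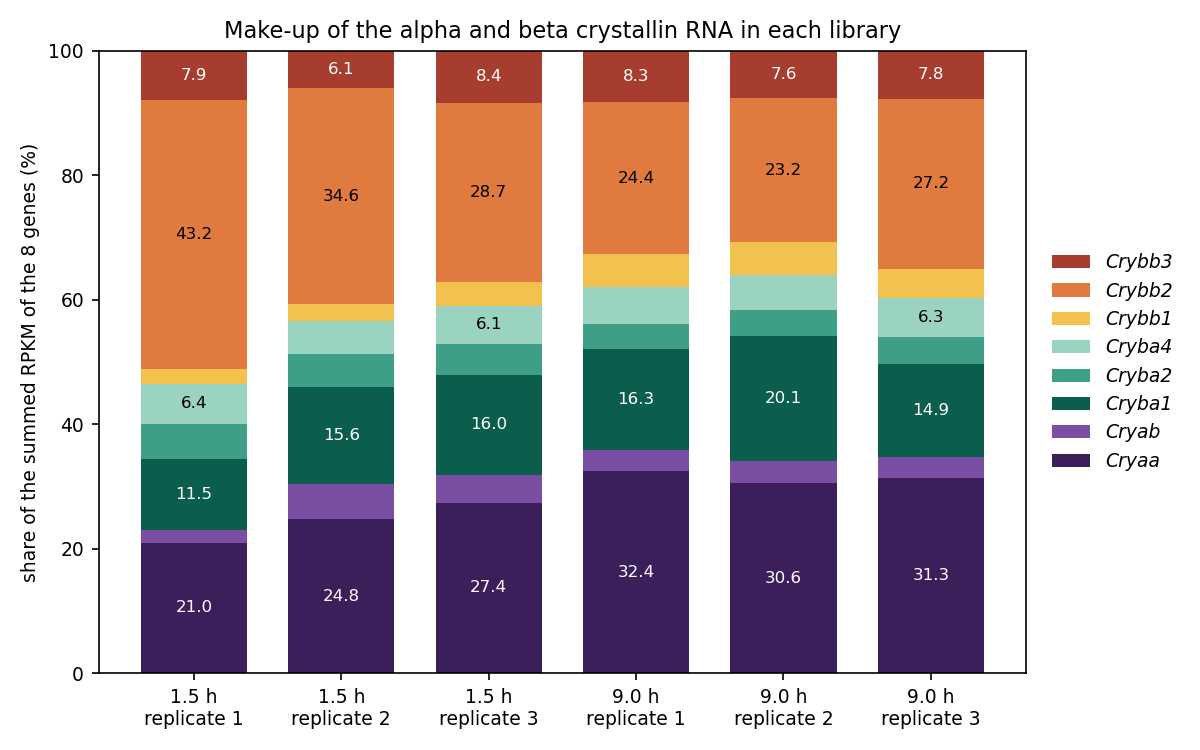
Share of each gene (% of the summed RPKM of the 8 genes, stacked to 100) in each library; shares of 6% or more are printed. The Crybb2 segment is 28.7% to 43.2% at 1.5 h and 23.2% to 27.2% at 9.0 h, and the Cryaa segment is 21.0% to 27.4% and 30.6% to 32.4%.

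Ratios between single genes showed the same separation, and were chosen after their values were seen. The log2 ratio of Cryaa to Crybb2 was −1.04, −0.48 and −0.07 at 1.5 h and 0.41, 0.40 and 0.20 at 9.0 h. Its sign therefore differed between the times in every library. The neighbours Crybb1 and Cryba4, with starts 3302 bases apart, did not keep a fixed ratio. The log2 ratio of Crybb1 to Cryba4 was −1.45, −0.95 and −0.64 at 1.5 h and −0.17, −0.15 and −0.42 at 9.0 h. Across the 6 libraries, as a description of points that share the library and its make-up, log2 levels of Crybb1 had Pearson r = 0.987 with Cryaa, 0.942 with Cryba4 and 0.942 with Crybb3. Crybb2 had r between −0.35 and 0.42 with each of the other 7 genes.

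The gamma crystallins, the other large crystallin family of the lens, were set beside these genes. None of their 8 measured genes was called, 7 had log2 changes above 0, and the median was 0.69, or 0.26 without 1.5 h replicate 1. Crygd alone did not overlap between the times, 1 of 8 genes, where 9.78% of all genes were higher without overlap. It had 11461 ± 5043 and 22451 ± 3689 RPKM (SD, n = 3 each; log2 change 1.05 ± 0.31, limma adjusted p = 0.242, and 0.0058 without 1.5 h replicate 1). The fit without 1.5 h replicate 1 called 9.11% of all genes, and without 1.5 h replicate 3 Crygd did not pass (limma adjusted p = 0.136). Cryga, Cryge, Crygf, Crygn and Crygc had log2 changes of 1.18, 0.92, 0.76, 0.63 and 0.57, and Crygb and Crygs had 0.12 and −0.15. Several gamma genes are close relatives in sequence, and how reads matching several of them were counted is not given in the sources used here. The log2 ratio of the summed alpha and beta genes to the summed gamma genes was 1.00, 0.56 and 0.31 at 1.5 h and 0.58, 0.31 and 0.64 at 9.0 h. These overlapped (exact permutation p = 0.8), and the difference between means was −0.11, or 0.07 without 1.5 h replicate 1. Gamma crystallins were more spread among early libraries, at 10.5%, 15.2% and 19.8% of total RPKM.

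**Figure D3:**
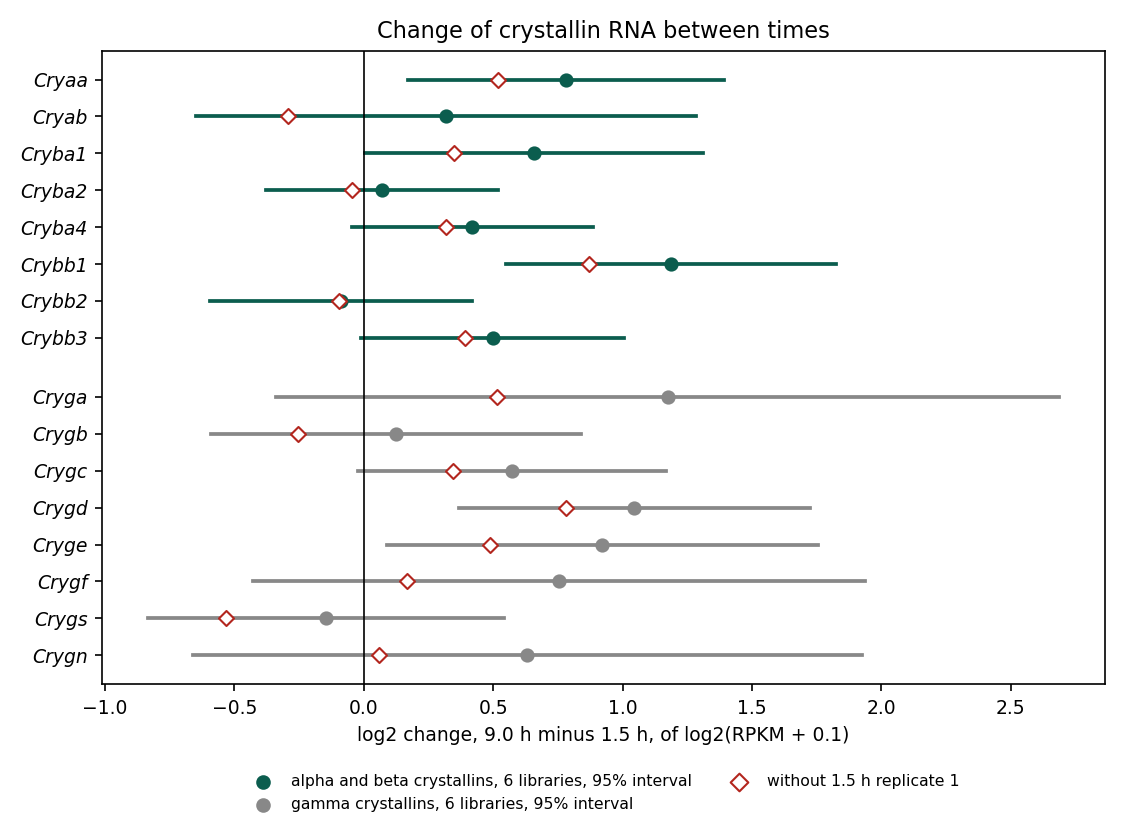
Log2 change from 1.5 h to 9.0 h of log2(RPKM + 0.1) for 8 alpha and beta (green) and 8 gamma crystallin genes (grey), with limma 95% intervals; diamonds leave out 1.5 h replicate 1. Crybb1 has the largest change of the alpha and beta genes (1.19), Crybb2 lies at −0.09, and the diamond of Cryab is at −0.29 while its filled point is at 0.32.

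Other lens genes were tallied in the same way. Of 19 measured genes of fibre structure and maturation none was called, 14 had log2 changes above 0, and the median was 0.19 (0.12 without 1.5 h replicate 1). Of the 19, 5 lay wholly higher at 9.0 h and 0 wholly lower, against 9.78% and 8.41% of all genes. Lenep, a small lens epithelial protein, had 0.42, Lgsn (lengsin) −0.10, Lim2, a fibre membrane protein, 0.41, and Bfsp1, a subunit of the beaded filament, 0.39, with limma adjusted p between 0.419 and 0.897. The fibre markers Mip, Lim2, Bfsp1, Bfsp2 and Gja3 were above 0 in every library, from Gja3, a gap junction protein, at 66.9 ± 9.5 RPKM to Lim2 at 1023 ± 205 RPKM at 1.5 h (SD, n = 3 each).

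Of 14 tested lens transcription factors none was called, 7 had log2 changes above 0 and 7 below, and the median was −0.05 (−0.22 without 1.5 h replicate 1). Of the 14, 1 lay wholly higher at 9.0 h and 3 wholly lower, against 9.78% and 8.41% of all genes. Hsf4, a heat shock factor needed for fibre maturation, had 20.1 ± 4.7 RPKM at 1.5 h and 29.4 ± 0.94 at 9.0 h, with no overlap (SD, n = 3 each; log2 change 0.57 ± 0.17, limma adjusted p = 0.241, and 0.0274 without 1.5 h replicate 1). Mab21l1, Pax6 and Six3, which are also expressed outside the lens, had −0.15, −0.16 and −0.35, and Six3 passed without that library (limma adjusted p = 0.0203). Of the genes listed as small heat shock proteins, 7 were tested and none was called. Of the 7, 1 lay wholly higher at 9.0 h and 0 wholly lower. The median log2 change was −0.0073 (−0.23 without 1.5 h replicate 1), in both fits the value of Hspb11. Whether Hspb11 belongs to the family of the alpha crystallins was not checked here. Hspb1 had 116 ± 32 and 203 ± 36 RPKM, with no overlap (SD, n = 3 each; log2 change 0.83 ± 0.22, limma adjusted p = 0.192, and 0.0079 without 1.5 h replicate 1). Hspb6, Hspb8 and Hspb11 had 0.07, 0.05 and −0.0073. Hspb3, named after its values were seen, had −0.52 (limma adjusted p = 0.698), and −1.03 without that library (limma adjusted p = 6.4e-06). Its level was low, at 1.63 to 5.62 RPKM. The fit without 1.5 h replicate 1 called 9.11% of all genes. Without 1.5 h replicate 3 none of Hsf4, Six3, Hspb1 and Hspb3 passed (limma adjusted p between 0.169 and 0.846).

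Some markers of other eye tissues were also low in 1.5 h replicate 1. The 8 genes lay 0.70 below their mean over the libraries there, gamma crystallins 1.20, skeletal muscle genes 0.76 and genes of corneal stroma and sclera 0.74 below (log2). In that library 11 of 12 muscle genes and 10 of 13 stroma and sclera genes had their lowest value, against 1 of 11 rod genes. Muscle genes summed to 918 to 1676 RPKM at 1.5 h and 1574 to 1835 at 9.0 h, and stroma and sclera genes to 1760 to 3845 and 2477 to 2856 RPKM. Rod genes summed to 9111 to 10647 and 8301 to 9730 RPKM. Every 9.0 h library lay above every 1.5 h library in 7 of 13 stroma and sclera genes and 5 of 12 muscle genes. The counts were 1 of 12 for corneal epithelium, 1 of 11 for rod, 1 of 9 for cone and 0 of 11 for pigment genes. Wholly below lay 0, 0, 1, 4, 4 and 3 genes in the same order. Over all tested genes 9.78% lay wholly above and 8.41% wholly below. The most abundant reported gene of each of these lists had a log2 change of −0.36 (Gnat1, rod), −0.02 (Gnb3, cone), 0.12 (Ttr, pigment epithelium), −0.04 (Krt12, corneal epithelium), −0.69 (Ptgds, stroma and sclera) and 0.90 (Acta1, muscle), and Ptgds and Acta1 passed the limma threshold when 1.5 h replicate 1 was left out. That fit called 9.11% of all genes, and Ptgds and Acta1 did not pass without 1.5 h replicate 3 (limma adjusted p = 0.562 and 0.189). Ttr, Krt12 and Ptgds had the opposite sign to most of their lists. Of the pigment genes 1 of 11 was above 0, of the corneal epithelium genes 8 of 12, and of the stroma and sclera genes 10 of 13. One muscle gene, Tcap, named after its values were seen, was called higher at 9.0 h (log2 change 1.31 ± 0.19, limma adjusted p = 0.0224, and 0.136 without 1.5 h replicate 3), and no other gene of these lists was called. Median log2 changes were 0.33 for muscle, 0.58 for stroma and sclera, 0.17 for corneal epithelium, −0.11 for rod, −0.21 for cone and −0.30 for pigment cell genes. Without 1.5 h replicate 1 they were 0.039, 0.44, 0.094, −0.19, −0.29 and −0.45 in the same order. None of these genes was at 0 in all libraries. The part of tissue make-up in the crystallin differences was not tested.

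**Figure D4:**
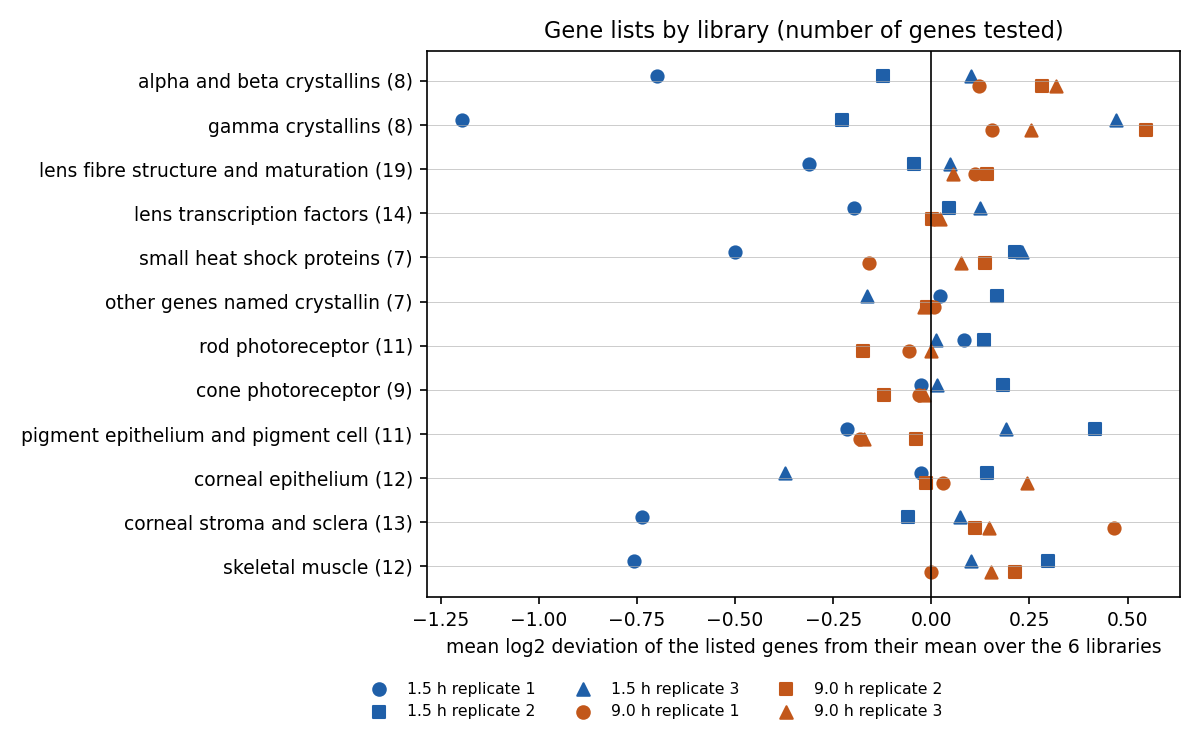
Mean log2 deviation of the genes of each list from their own mean over the 6 libraries (number of genes tested in brackets), with 1 point per library, blue for 1.5 h and orange for 9.0 h, and shapes for replicates. In 1.5 h replicate 1 the alpha and beta crystallins are at −0.70, gamma crystallins at −1.20, and stroma and muscle lists at −0.74 and −0.76, while rod genes are at 0.08.

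The genes most like the mean pattern of the 8 across the 6 libraries were sought among 5866 genes of at least 10 RPKM outside the crystallins. The highest Pearson r values were those of Birc7 (0.997), a gene of the inhibitor of apoptosis family known from lens fibres, Adck3 (0.989), a kinase-like protein of coenzyme Q synthesis, Pgam2 (0.985), a muscle phosphoglycerate mutase, Bfsp2 (0.982), the second beaded filament subunit, Mrpl37 (0.980), a mitochondrial ribosomal protein, and Casq1 (0.980), the calsequestrin of fast muscle. Of the 6, 2 are known lens fibre genes and 2 muscle genes. With 6 libraries high values of r are easily reached, and all are given as a description. Their own log2 changes were between 0.23 and 0.53, smaller than those of Cryaa and Crybb1.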

How the data were processed

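Poly(A) RNA from whole eyes was sequenced after random-primed cDNA synthesis, per the labels' protocols. The authors deposited 1 table per library with an RPKM value for each gene symbol. No header states the unit, which was inferred from the range and decimals of the values. GSNAP, HTSeq and the mouse build mm9 are named in the submitters' processing notes, while their versions, the annotation and the strand setting are not given in those notes. A library's total reads were estimated from RPKM times length in genes with a single GENCODE M21 transcript, where 70.4% to 72.4% of low values came within 0.1 of a whole read (median over other steps tried, 13.4% to 16.5%).

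Values were tested with limma 3.58.1 in R 4.3.3 (eBayes with trend and robust, log2(RPKM + 0.1), at least 1 RPKM in 3 libraries, Benjamini-Hochberg over 13490 genes), tested on simulated data. Shares were compared with exact two-sided permutation tests in scipy 1.17.1. The members and lists were chosen with earlier results of these data known. Named were all 8 genes, the gamma crystallins, up to 4 members of each lens list by mean level, the top gene of other-tissue lists and the 6 genes most like the mean pattern. Promoter windows come from RefSeq on GRCm38.p6, not the build of the files, and 98.2% of symbols matched a GENCODE length. In GENCODE, exons of Cryab share 252 bases with Hspb2 and those of Cryaa 273 bases with AC090881.2, both on the opposite strand, and reads there cannot be told apart without strand. No other near-identical sequence (at least 95% over 200 bases, minimap2 2.31) was found. Alternatives were other pseudocounts, filters, scalings, settings of limma, left-out libraries, estimated reads and a replicate block. Some genes of the marker lists, and a scaling to lens fibre markers that rested on one of them, are not reported here.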

Additional observations from a re-analysis of the deposited data

How the results depend on the processing

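Leaving out 1 library at a time gave 0 to 1 called members (Crybb1, without 1.5 h replicate 1), and a difference between times in the log2 ratio of these genes to gamma crystallins from −0.27 to 0.074. Log2 changes then ranged from −0.29 to 0.67 for Cryab and from −0.043 to 0.15 for Cryba2, and differences in share of the 8 from −1.58 to 0.217 percentage points for Cryab, −0.258 to 0.277 for Cryba4 and −0.282 to 0.896 for Crybb3. After quantile normalization, which keeps only ranks, the median change was 0.050, with −0.32 for Cryab, −0.23 for Cryba2, 0.032 for Cryba1, 0.067 for Cryba4 and 0.16 for Crybb3. Of the 8 changes, 6 were above 0 when scaled to genes outside the lens lists and 6 without 9.0 h replicate 3. Cryba2 had −0.0076 when scaled to genes outside the lens lists. Cryba4's difference in share was −0.133 with estimated reads. The directions of the log2 changes of Cryaa, Cryba1, Cryba4, Crybb1, Crybb2 and Crybb3 held in every setting run. Deviations of same-numbered libraries had r of 0.347, 0.484 and −0.215, which does not settle whether the numbers pair the samples. With the replicate block no member was called, and Crybb1 had 1.19 (limma adjusted p = 0.0587).

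Over all genes 30 were called, against 141 with the block, 15 with quantile or median-of-ratios scaling, 1219 without 1.5 h replicate 1, 46 and 10 without replicates 2 and 3 of that time, and 3, 8 and 2 without 9.0 h replicates 1 to 3. With 3 pooled libraries a time, a missed threshold does not show equal levels. The table lists no mitochondrially encoded gene by symbol prefix, so the total without them differed only by the gamma crystallins, and the summed share then overlapped between times.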

Other observations

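Other genes listed as named crystallin, among them Crybg3, Aim1 and Aim1l, had no common direction. Of 7 tested none was called, and 2 had log2 changes above 0. At 9.0 h 1 of the 7 (Cryl1) lay wholly higher and 1 (Crybg3) wholly lower, against 9.78% and 8.41% of all genes. Crybg3 had 3.25 ± 0.32 RPKM at 1.5 h and 2.64 ± 0.27 at 9.0 h (SD, n = 3 each; log2 change −0.29, limma adjusted p = 0.565). Crym, a thyroid hormone binding protein, had 29.0 ± 5.8 RPKM at 1.5 h and 28.1 ± 0.41 at 9.0 h (SD, n = 3 each). Cryzl1 and Cryz, quinone oxidoreductase relatives, had log2 changes of −0.15 and 0.03. Cryl1, a sugar dehydrogenase, had 6.61 ± 1.30 and 9.00 ± 0.36 RPKM with no overlap (log2 change 0.46, limma adjusted p = 0.352, and 0.038 without 1.5 h replicate 1). That last fit called 9.11% of all genes, and without 1.5 h replicate 3 Cryl1 did not pass (limma adjusted p = 0.636).

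The summed RPKM of all genes was 393433, 484249 and 490387 at 1.5 h and 501906, 546836 and 541816 at 9.0 h. Without the alpha, beta and gamma crystallin genes it was 269896, 301404 and 273304 at 1.5 h and 293400, 294520 and 305333 at 9.0 h, which overlapped (exact permutation p = 0.3). The crystallin genes took 31.4%, 37.8% and 44.3% of it at 1.5 h and 41.5%, 46.1% and 43.6% at 9.0 h.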
